A study of Mus musculus with 4 samples.

Results

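Peaks of N6-methyladenosine (m6A) were described here for 8 genes of the fibroblast growth factor (FGF) system, the receptors *Fgfr1*, *Fgfr2* and *Fgfr3*, the secreted ligands *Fgf1*, *Fgf2* and *Fgf9*, and the intracellular FGFs *Fgf13* and *Fgf14*. The members were selected on the gene name that the deposited tables give to each peak and on the presence of *Fgfr2* and *Fgfr3* in the table of peaks that differed between the groups, so counts of differential rows are a description and nothing is read from them. Under these names stood 55 of the 33556 peaks of the injured spinal cord, 65 of the 34406 peaks of the sham spinal cord and 9 of the 4812 rows of the differential table. The differential rows were 7 for *Fgfr2* and 2 for *Fgfr3*, so 2 of the 8 genes had any, and over all gene names of the lists 25.3% had at least 1 such row.

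Spinal cord was taken from C57BL/6J mice, 6 to 8 weeks of age, 7 days after surgery. The groups were chronic constriction injury (CCI) and sham surgery. CCI is a model of neuropathic pain that is usually made with loose ligatures around the sciatic nerve. The paper describes the operation for spinal nerve ligation and its sham, but gives no procedure for CCI. Methylated RNA immunoprecipitation sequencing (MeRIP-seq) captures fragments of poly(A) RNA with an antibody against m6A (the IP library) and sets them against the same RNA without capture (the input library). Each group had a single IP library (n = 1) and a single input library, so differences between CCI and sham carry no replicate error and were not tested. How many mice stood behind a library is not given in the sources used here, and the labels name no genetic change and no drug for either group. In RNA of a tissue, a shift among cell types with unlike m6A and a lower m6A level per transcript cannot be told apart.

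FGFs are secreted signals that bind receptor tyrosine kinases together with heparan sulfate or klotho coreceptors, and the receptors pass the signal on through the adaptor FRS2 to the RAS and ERK cascade. In the adult spinal cord, FGFR3 is known from astrocytes, FGFR2 from oligodendrocytes and astrocytes, and FGF2 and FGF9 from glia and neurons, while FGF13 and FGF14 are not secreted and act on voltage-gated sodium channels inside neurons. m6A is a methyl mark on adenosines of mRNA that is often found near stop codons and in 3′-UTRs, and it can alter the stability and translation of a transcript.

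The name *Fgfr2* did not mark the place of most of its peaks. Of the 37 CCI peaks with that name, 1 (2.70%) lay inside the *Fgfr2* gene of RefSeq (chr7:130162451-130266808 of GRCm38, minus strand, 104 kb), and of the 46 sham peaks 2 (4.35%) did. Of the 7 differential rows named *Fgfr2*, 0 lay inside it. The other rows had been assigned by the tables to 1 transcript model, ENSMUST00000124096, listed from 130162451 to 133123350 on the same strand, which gives it a span of 2.96 Mb. The RefSeq *Fgfr2* gene fills 3.52% of that span at its far end, and 31 other protein-coding genes overlap the rest, 14 on the plus strand, 13 on the minus strand and 4 with no strand in the table used. Of the 36 CCI peaks named *Fgfr2* outside the gene, 35 lay in 18 other protein-coding genes, and of the 44 such sham peaks 42 lay in 19.

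Further features of the rows pointed to the same neighbouring genes. The tables also give, for a peak in an exon, the gene ID of that exon. For rows named *Fgfr2* this ID was another gene's in 10 of 10 exonic CCI peaks, in 10 of 11 exonic sham peaks and in 2 of 2 exonic differential rows. Several peaks ended on the very base where a neighbouring gene ends. The CCI, sham and differential rows at *Bub3* all ended at 131571895, the last base of that plus-strand gene in RefSeq, and 1 of the 2 sham peaks and the CCI peak at *Lhpp* ended at its last base, 132706420. Of the 4 peaks in *Ate1*, 1 CCI peak began at 130391493, the base where that minus-strand gene ends. A pair of peaks named *Fgfr2* ended a block exactly at a RefSeq start site of *Ctbp2*, a transcriptional corepressor gene, at 133081860 on the minus strand. Both peaks have 2 blocks, and the other block lies upstream of that site, so the peaks run past the site and do not begin there. The 30 bases from that site (chr7:133081831-133081860, GRCm38.p6, minus strand) are shown because they lie inside both peaks, open a RefSeq transcript of *Ctbp2* and stand far outside the RefSeq *Fgfr2* gene.
Ctbp2: ggcttcatcactgtaaatggttgcaagccg
Capitals would mark GGAC, the common core of the m6A consensus, searched on both strands, and these 30 bases held none. Over the 32851 RefSeq start windows, 20.5% held GGAC in the same 30 bases.

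Rows outside the gene they are named after were uncommon in the tables as a whole. They made up 3.23% of the CCI peaks, 3.38% of the sham peaks and 2.46% of the differential rows whose name was found in RefSeq. *Fgfr2* ranked 1 by the number of such rows in each of the 3 tables, ahead of *Glod4* with 16 in CCI and 18 in sham. Every row named *Fgfr1*, *Fgfr3*, *Fgf2*, *Fgf9*, *Fgf13* or *Fgf14* overlapped the RefSeq span of that gene, and a spliced CCI peak of *Fgf2* also ran past its end. The rows named *Fgfr2* are therefore described first, by the gene in which they lie, and the peaks inside the FGF genes after them.

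To place the loci, positions were counted along the listed transcript from its start, and a CCI peak and a sham peak formed a pair where neither had a better match, the match being the exonic bases shared over those covered by either. The value compared is the fold enrichment of IP over input, and the difference is the log2 ratio of CCI over sham, which is negative where CCI was lower. The 7 differential rows named *Fgfr2* were spread from 5.86% to 74.7% of the listed length, which is 2683 to 644 kb upstream of the RefSeq start of *Fgfr2*. Each lay in a different gene. In 4 the fold enrichment was lower in CCI and in 3 it was higher.

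**Figure D1:**
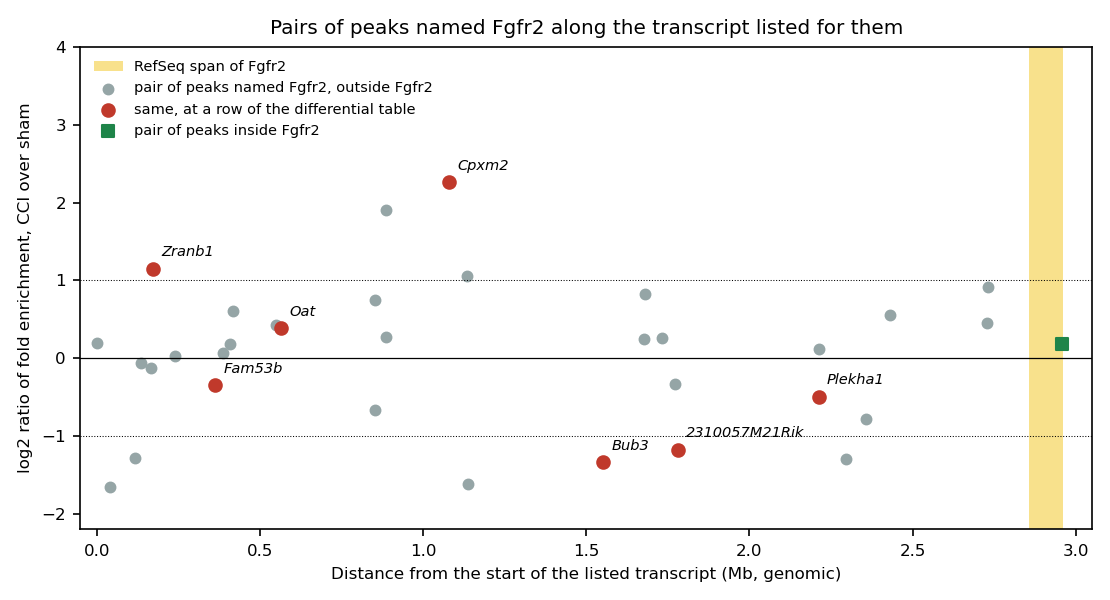
Each point is a pair of peaks named *Fgfr2*, with its distance in Mb from the start of the listed transcript on the x axis and the log2 ratio of fold enrichment, CCI over sham, on the y axis, where dotted lines mark 2-fold. The 7 red points at differential rows, labelled by RefSeq gene, lie outside the yellow band of the *Fgfr2* gene, and the 1 pair inside it (green) sits at 0.18.

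The 3 loci nearest to *Fgfr2* were lower in CCI. In the 3′-UTR of *Plekha1*, a phosphoinositide-binding adaptor gene on the plus strand (chr7:130910859-130911218), the fold enrichment was 4.98 in CCI and 7.05 in sham, a log2 ratio of -0.50. In the 3′-UTR of *2310057M21Rik* on the minus strand (chr7:131343469-131348746, 391 exonic bases) it was 11.3 in CCI and 25.6 in sham, a log2 ratio of -1.18. The sham peak there reached over an intron that the CCI peak did not cross, so the values were taken over 331 exonic bases in CCI and 391 in sham. In the 3′-UTR of *Bub3*, a spindle checkpoint gene on the plus strand (chr7:131571626-131571895), it was 12.4 in CCI and 31.4 in sham, a log2 ratio of -1.34. Of all 27380 pairs of the lists, 3.8% had a log2 ratio below that of *Bub3*, 5.1% below that of *2310057M21Rik* and 19.4% below that of *Plekha1*.

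The next locus carried the highest ratio of all pairs named *Fgfr2*. In the 3′-UTR of *Cpxm2*, a secreted member of the carboxypeptidase family on the minus strand (chr7:132043807-132044135), the fold enrichment was 47.4 in CCI and 9.88 in sham, which is 4.80-fold higher, with a log2 ratio of 2.26. The peaks had nearly the same borders, 299 exonic bases in CCI and 329 in sham. This value lay above 99.0% of all pairs.

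The remaining 3 loci were closer to the start of the listed transcript and went both ways. In the 3′-UTR of *Oat*, the gene of ornithine aminotransferase on the minus strand (chr7:132557956-132558135), the fold enrichment was 2.28 in CCI and 1.75 in sham, over the same 180 bases, a log2 ratio of 0.38. In an exon of *Fam53b* on the minus strand (chr7:132759445-132760163), given by the tables as exon 4 of 5, it was 10.7 in CCI and 13.6 in sham, a log2 ratio of -0.35. In an exon of *Zranb1*, a deubiquitinase gene on the plus strand (chr7:132949737-132949916), given as exon 2 of 10, it was 4.71 in CCI and 2.12 in sham, a log2 ratio of 1.15. A 2-fold difference was thus reached at 4 of the 7 loci, *2310057M21Rik*, *Bub3*, *Cpxm2* and *Zranb1*, and *Plekha1*, *Oat* and *Fam53b* stayed under it. At *Bub3* and *Zranb1* the values also cover unlike stretches, 300 exonic bases in CCI and 211 in sham at *Bub3*, and 210 and 120 at *Zranb1*.

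**Figure D2:**
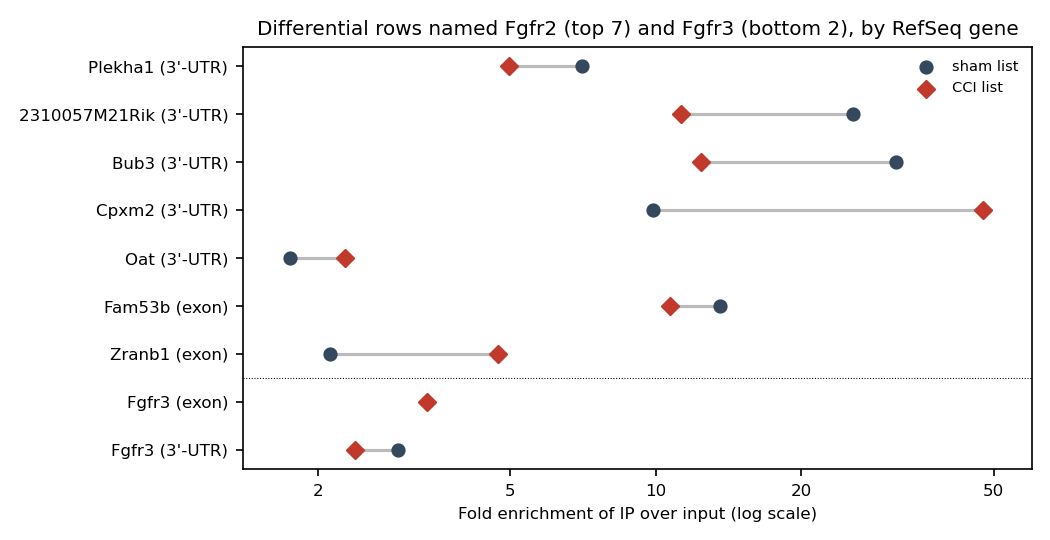
Fold enrichment of IP over input on a log scale, in the sham list (circles) and the CCI list (diamonds), at the 7 differential rows named *Fgfr2*, ordered from the end of the listed transcript to its start and labelled by the RefSeq gene in which they lie, and at the 2 rows of *Fgfr3*. The longest bar is *Cpxm2*, from 9.88 in sham to 47.4 in CCI, and 1 *Fgfr3* row has no sham peak.

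The other peaks named *Fgfr2* also differed in both directions. With the 7 loci above included, 33 pairs outside the *Fgfr2* gene had a median log2 ratio of 0.18 and a range of -1.66 to 2.26, with an SD of 0.94 over pairs, against an SD of 0.78 over all pairs of the lists. Of the 33, 13 were lower and 20 higher in CCI, and 10 (30.3%) differed at least 2-fold, against 15.8% of all pairs. Without the 7 loci, 26 pairs remained, of which 6 (23.1%) differed at least 2-fold. Since *Fgfr2* was taken for its differential rows, nothing is read from that share. The pairs came from different transcripts and on both strands, so they are not repeated measurements of 1 gene. No other gene name had a number of pairs within 1 of the 34 of *Fgfr2*, so none is named as most like it.

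Among the pairs past 2-fold that were not in the differential table, 2 lay in *Ctbp2*. In the pair with a block that ends at the start site named above, the fold enrichment was 4.04 in CCI and 12.8 in sham. Its log2 ratio of -1.66 was the lowest of all pairs named *Fgfr2*. A second pair in *Ctbp2*, annotated as 5′-UTR, had 3.16 in CCI and 7.75 in sham, while its 3′-UTR pair had 11.6 and 12.1 and the pair nearest to the start of the listed transcript had 22.3 and 19.6. The gene therefore held pairs that differed and pairs that nearly matched. In *Btbd16* the pair had 5.21 in CCI and 12.8 in sham, a log2 ratio of -1.30. Both of its peaks were short, at 90 bases, and weakly called. The deposited false discovery rate of IP against input was 3.39e-03 in CCI and 7.41e-03 in sham.

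In *Gpr26*, the gene of an orphan G protein-coupled receptor, peaks of 1 gene stood under different names. Its 3′-UTR pair, named *Fgfr2* in both lists, had a fold enrichment of 17.1 in CCI and 52.5 in sham, a log2 ratio of -1.62. A sham peak of 6.79 named *Fgfr2* in the same gene had as its partner a CCI peak of 52.1 named *Gpr26*, a log2 ratio of 2.94. The CCI peak began at 131966460 and the sham peak at 131966880, with the same end, so the values cover unlike stretches. Selecting peaks by name alone leaves that pair out. At *Zranb1*, a CCI peak of 34.4 named *Fgfr2* had a sham partner of 17.4 under the name *1500002F19Rik*. That CCI peak overlaps both *Zranb1* and *1500002F19Rik*, which lie on opposite strands, so these genes cannot be told apart there. A sham peak of 24.5 in *Zranb1*, named *Fgfr2*, had a CCI partner of 31.6 under the name *Gm15718*.

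In *Chst15*, which codes for a chondroitin sulfate sulfotransferase, the lists cut the 3′-UTR differently. A CCI peak of 928 bases with a fold enrichment of 11.4 covered both a sham peak of 539 bases with 3.04 and a sham peak of 300 bases with 10.8. The pair formed with the longer sham peak had a log2 ratio of 1.91, whereas against the shorter one the values nearly matched. The other 3 pairs of *Chst15* ranged from -0.67 to 0.74. The 1 remaining pair past 2-fold, with 4.80 in CCI and 2.32 in sham at chr7:131990029-131990239, lay in no protein-coding gene of RefSeq.

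The remaining pairs named *Fgfr2* stayed under 2-fold. The largest of these was in the 3′-UTR of *Ate1*, the arginyltransferase gene, with a fold enrichment of 12.5 in CCI and 6.64 in sham. *Acadsb*, an acyl-CoA dehydrogenase gene, had an exonic pair with 12.4 in CCI and 7.04 in sham. *Tacc2* went both ways, with 22.6 in CCI and 15.4 in sham in its 5′-UTR and 18.2 and 31.4 in its 3′-UTR. At *Abraxas2* the values were 9.76 and 9.62. Without any overlap in the other list stood 1 CCI peak named *Fgfr2* (2.70%), against 12.3% of all CCI peaks. It had 7.47 and lay at both *Plekha1* and *Gm5602*, which are on opposite strands. Of the sham peaks named *Fgfr2*, 8 (17.4%) had no overlap, against 16.1% of all sham peaks, the strongest in the 5′-UTR of *Nsmce4a* with 24.4. Of these 8, 2 at *Chst15* covered nearly the same bases.

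Inside the FGF genes no pair reached 2-fold, although *Fgfr1*, *Fgfr2*, *Fgfr3*, *Fgf2* and *Fgf9* also had peaks in 1 list alone. There were 15 pairs in 7 of the 8 genes, with a median log2 ratio of 0.03, a range of -0.73 to 0.27 and an SD of 0.27 over pairs. Of these, 5 were lower and 10 higher in CCI, and 0 reached 2-fold in either direction, whereas over all pairs 7.25% were at least 2-fold lower and 8.59% at least 2-fold higher in CCI. With 15 pairs, shares of that size stand for few pairs, so nothing is read from the count of 0. Counted by name, with the peaks outside *Fgfr2* included, 6 of 48 pairs were at least 2-fold lower and 4 at least 2-fold higher, and all 10 lay outside the FGF genes. The median over all pairs of the lists was also 0.03.

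**Figure D3:**
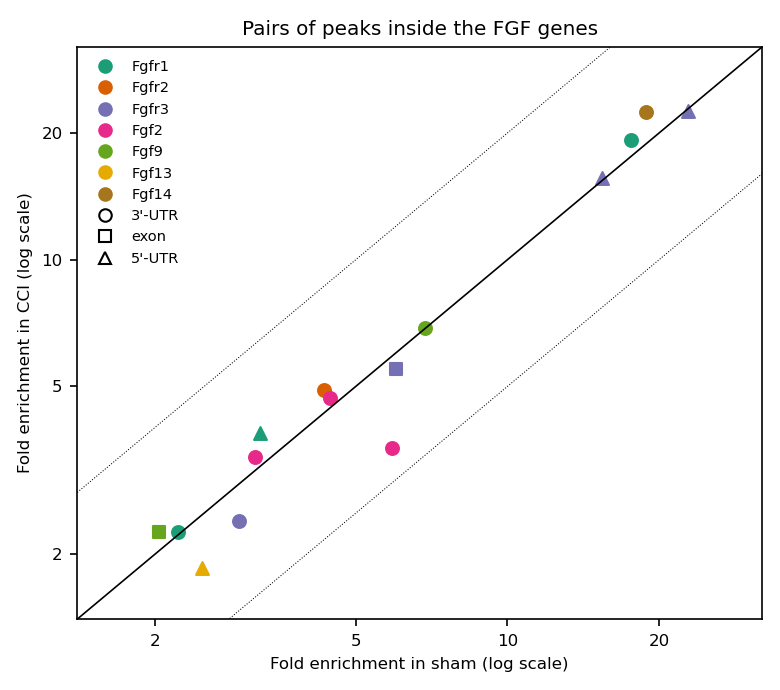
Fold enrichment in sham (x axis) and in CCI (y axis), both on log scales, for the 15 pairs of peaks inside the FGF genes, with colour for the gene and shape for the region. The solid line marks equal values and the dotted lines 2-fold, and all points lie between the dotted lines.

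*Fgfr1* (ENSMUSG00000031565), a receptor of neurons and glia, had 3 CCI and 4 sham peaks. Its 3′-UTR peak (chr8:25573590-25574252 in sham) had a fold enrichment of 19.2 in CCI and 17.6 in sham over 570 exonic bases each, and was by far the strongest of the gene. The 5′-UTR pair had 3.87 in CCI and 3.22 in sham, with 180 bases in CCI and 300 in sham. A short pair further along the 3′-UTR had 2.26 in CCI and 2.22 in sham. CCI was above sham in all 3 pairs, by at most 0.27 on the log2 scale, which is under the SD of all pairs. The other sham peak (chr8:25569652-25569802), with a fold enrichment of 1.82, had no CCI partner.

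Inside the *Fgfr2* gene (ENSMUSG00000030849) stood 1 pair, in the 3′-UTR, at chr7:130163618-130164127 in CCI and from 130163678 to the same end in sham. The fold enrichment was 4.91 in CCI and 4.33 in sham, a log2 ratio of 0.18, and 60.6% of all pairs lay below it. A sham peak of 1.96 in exon 3 of 16, made of 2 blocks between 130228780 and 130241166, had no CCI partner. The receptor gene itself thus carried 1 peak in CCI and 2 in sham, all with fold enrichments below the median over all peaks, which was 5.72 in CCI and 5.70 in sham.

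*Fgfr3* (ENSMUSG00000054252), a receptor gene of astrocytes, had 5 peaks in each list and was the only member with differential rows inside its own gene. Its strongest peaks lay at the start of the transcript and were nearly equal between the groups. The spliced 5′-UTR peak (chr5:33721764-33722324, 210 exonic bases in both lists) had a fold enrichment of 22.6 in CCI and 22.8 in sham, and an overlapping peak from 33721751 had 15.6 and 15.4. These peaks share bases, so they are not independent. At the start site at 33721724, the overlapping peak covers bases 28 to 50 of the RefSeq start window (chr5:33721751-33721773, plus strand), and the spliced peak only bases 41 to 50. At the start site at 33722306, the spliced peak covers bases 1 to 19 (chr5:33722306-33722324, plus strand). This stretch is shown because the second block of the spliced peak begins exactly there. Its first block lies upstream, so the spliced peak as a whole does not start at that site.
Fgfr3 first start site: cccccgcccgggctgctgcgcgc
Fgfr3 second start site: tctccacagaggcgttctc
GGAC was in neither stretch on either strand. Over all start windows, 16.6% held it in bases 28 to 50 and 12.9% in bases 1 to 19, and only these stretches of the peaks were searched.

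The differential rows of *Fgfr3* lay further along the gene. The first (chr5:33731058-33731208, in an exon given as exon 6 of 7) matched a CCI peak with a fold enrichment of 3.37 and had no overlapping sham peak. The second (chr5:33735511-33735810, 3′-UTR) had 2.39 in CCI and 2.93 in sham, a log2 ratio of -0.29. Of all pairs, 29.0% lay below that value. Between them, a pair in the same exon as the first row had 5.50 in CCI and 6.01 in sham, and was not in the differential table. A sham peak of 5.62 over the last 91 bases of the gene (chr5:33736978-33737068) had no CCI partner and was not in the differential table either. *Fgfr3* therefore had a peak listed in CCI alone and a peak listed in sham alone.

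Of the secreted ligands, *Fgf1* had no peak in either list. This says that none was listed at the depth of these libraries, which the tables do not give, and not that the transcript carried no m6A.

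*Fgf2* (ENSMUSG00000037225) had 5 CCI and 6 sham peaks, all close together towards its 3′ end (chr3:37404633-37410603 over both lists). A 3′-UTR peak starting at 37405060 had a fold enrichment of 4.69 in CCI and 4.45 in sham. Each list held these borders a second time, with 4.36 in CCI and 4.45 in sham, so the rows count the same bases again. The next pair had 3.39 in CCI and 3.15 in sham, and the pair ending at 37406045 had 3.56 in CCI and 5.90 in sham. The last, with a log2 ratio of -0.73, was the largest difference inside any of the FGF genes and lay above 12.4% of all pairs. A spliced CCI peak with 2.05 and sham peaks with 4.36 and 4.21 formed no pair. These sham peaks share bases, and the exon given for the one with 4.21 carries the ID of another gene, ENSMUSG00000106407. From 37405060 on, the peaks also overlap *Nudt6*, a gene on the opposite strand, and since it is not stated whether strand was used in calling, the peaks of the 2 genes cannot be told apart.

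*Fgf9* (ENSMUSG00000021974), a ligand with high affinity for FGFR3, had 3 CCI and 2 sham peaks. Its 3′-UTR pair (chr14:58109811-58110171 in CCI) had a fold enrichment of 6.88 in CCI and 6.86 in sham, the closest match of all member pairs. The pair in exon 1 of 3 had 2.26 in CCI and 2.03 in sham. A 5′-UTR peak with 2.74 (chr14:58072765-58072915) was listed in CCI alone.

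The intracellular FGFs had 1 peak each in both lists. *Fgf14* (ENSMUSG00000025551), in which mutations cause a spinocerebellar ataxia, had a strong 3′-UTR peak (chr14:123979968-123983791 in CCI) with a fold enrichment of 22.4 in CCI and 18.8 in sham. The CCI peak had 2 blocks and 538 exonic bases and the sham peak 1 block and 359. *Fgf13* (ENSMUSG00000031137) had a weak 5′-UTR peak (chrX:59134060-59134210 in sham) with 1.85 in CCI and 2.47 in sham, a log2 ratio of -0.42, over 91 and 151 bases. The strongest peaks of the FGF genes were thus those of *Fgfr3* at the 5′ end and of *Fgf14* and *Fgfr1* at the 3′ end.

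Over the members, 92.7% of the CCI peaks overlapped a sham peak and 81.5% of the sham peaks overlapped a CCI peak, against 87.7% and 83.9% over all peaks. Without the rows named *Fgfr2*, these shares were 15 of 18 (83.3%) and 15 of 19 (78.9%). Inside the FGF genes, 9 of 19 CCI peaks (47.4%, 95% Wilson interval 27.3 to 68.3%) and 13 of 21 sham peaks (61.9%, 40.9 to 79.2%) were annotated as 3′-UTR, against 49.8% and 48.9% of all peaks. As 5′-UTR were annotated 7 CCI peaks (36.8%, 19.1 to 59.0%) and 4 sham peaks (19.0%, 7.67 to 40.0%), against 14.7% and 16.1% of all peaks. These intervals cover counting error only, and the rows are not independent, since some overlap. The CCI share in 5′-UTRs had an interval above that of all peaks, and the other 3 intervals included the share of all peaks. However, the 7 CCI rows included *Fgf2* peaks from 37405449 and 37405478, towards the 3′ end of that gene. The sham partner of the latter was annotated as 3′-UTR. The overlapping *Fgfr3* peaks at its start were also among the 7, so nothing is read from this share. The median fold enrichment inside the FGF genes was 3.87 in CCI and 4.36 in sham.

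The rest of the pathway was followed in 62 other genes, each taken by its strongest pair, the one with the highest mean fold enrichment. The highest sham peak of a gene could lie outside that pair. Of these, 46 had a CCI peak, 49 a sham peak and 13 none, and 46 had a pair. The median log2 ratio over the 46 was 0.04, with 22 genes lower and 24 higher in CCI, beside a median of 0.02 over the 11543 genes with a pair. At least 2-fold differences stood in 15 of the 46 (32.6%), 5 lower and 10 higher, and 22.5% of all genes with a pair had one. With 1 library of each kind per group, none of these differences has an error, and most rest on peaks that only partly share their borders.

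**Figure D4:**
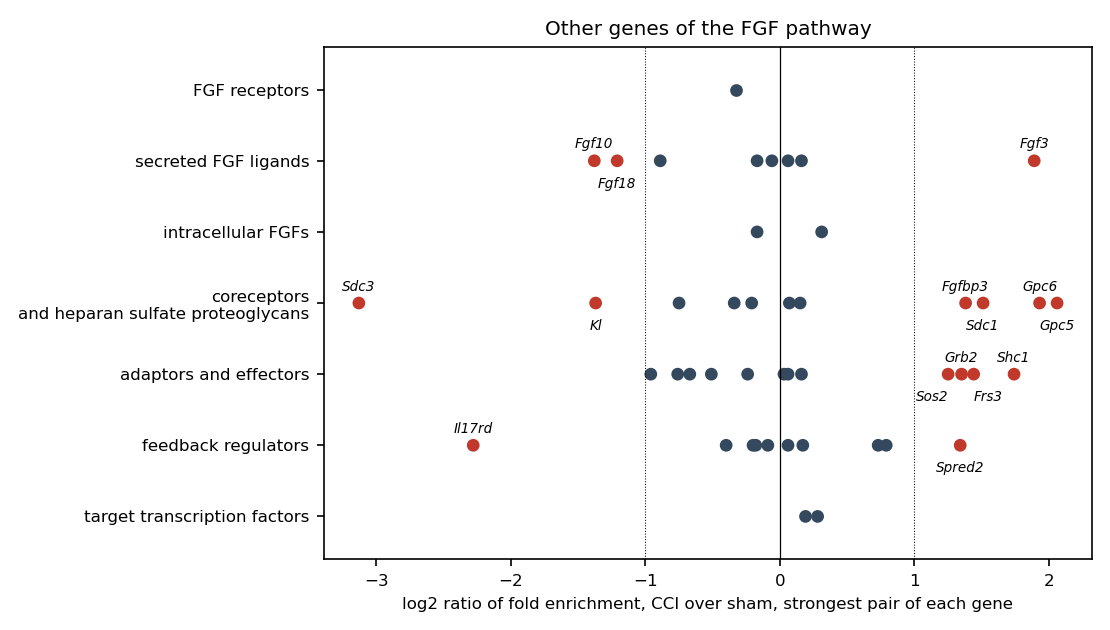
Each point is a gene of the FGF pathway at the log2 ratio of fold enrichment, CCI over sham, of its strongest pair, arranged by role, with dotted lines at 2-fold. The 15 genes past 2-fold are red and named, and they reach from -3.13 for *Sdc3* to 2.06 for *Gpc5*.

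Among the remaining receptors, *Fgfrl1*, which codes for a receptor without a kinase domain, had a 5′-UTR peak (chr5:108692442-108694425) with a fold enrichment of 81.8 in CCI and 103 in sham, higher than any peak inside the FGF genes above, and *Fgfr4* had no peak. Of 15 further secreted ligands, 8 had a pair. *Fgf3* was higher in CCI, with 60.5 against 16.3 in sham in its 3′-UTR. *Fgf10*, a ligand of FGFR2, was lower in CCI, with 4.45 against 11.6, and *Fgf18* was lower with 14.3 against 33.1. These 3 ligands were past 2-fold and went in both directions. The peaks taken for *Fgf20* and *Fgf22* lay outside the RefSeq genes of those names, as did the sham peak of *Gpc4* among the coreceptors. Of the other intracellular FGFs, *Fgf11* had 13.9 in CCI and 11.2 in sham and *Fgf12* 1.64 and 1.84.

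Of the coreceptors and heparan sulfate proteoglycans, 6 of 11 genes with a pair were past 2-fold, 2 lower and 4 higher, beside the 22.5% of all genes, and 11 genes are too few to rank this list against the others. *Sdc3*, which codes for a syndecan prominent in nervous tissue, had a 5′-UTR peak (chr4:130792537-130792717 in CCI) with a fold enrichment of 15.5 in CCI and 136 in sham, 8.77-fold lower in CCI. *Kl*, the gene of klotho, had 2.87 in CCI and 7.44 in sham. The glypican genes *Gpc5* and *Gpc6* went the other way, with 29.2 in CCI and 7.02 in sham for *Gpc5* and 11.8 and 3.10 for *Gpc6*. A higher sham peak of *Gpc6*, at 4.45, stood outside its pair. *Sdc1* had 15.1 in CCI and 5.29 in sham, and *Fgfbp3*, the gene of an FGF carrier protein, 11.5 and 4.42. The median of the list was 0.07.

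Of 12 adaptor and effector genes, all had a pair, and 4 were at least 2-fold higher and 0 at least 2-fold lower in CCI. Over all genes with a pair, 11.9% were that much higher and 10.6% that much lower, which stands for few genes of 12, so nothing is read from the count of 0. *Shc1* had a fold enrichment of 20.3 in CCI and 6.08 in sham, *Frs3* 23.8 and 8.80, and *Grb2*, whose product brings SOS to the receptor complex, 75.1 and 29.4. *Sos2* had weaker peaks, with 4.04 in CCI and 1.70 in sham. Higher sham peaks stood outside these pairs, at 13.9 for *Shc1*, 16.5 for *Frs3* and 2.38 for *Sos2*, but not for *Grb2*. The differences of *Shc1*, *Frs3* and *Sos2* therefore hold for the paired peaks and not for the highest sham peak of the gene. *Frs2*, the main FGF receptor adaptor gene, had 33.3 in CCI and 31.9 in sham, and *Cbl*, a ubiquitin ligase gene, was the lowest with 4.42 and 8.62. *Crk* had the highest sham value of the list, 32.1, with 18.9 in CCI. The median of the list was 0.04, so the genes past 2-fold stood beside others at or below it.

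Among 12 feedback regulators, 10 had a pair. *Il17rd*, which codes for the FGF antagonist SEF, had an exonic peak with a fold enrichment of 5.73 in CCI and 27.9 in sham, 4.87-fold lower in CCI. *Spred2*, an inhibitor of RAS signalling, had 27.6 in CCI and 10.9 in sham. *Spred3* had the highest sham value of this list, 43.0, with 44.8 in CCI. The other 8 genes of the list were under 2-fold. Of the ETS factors that FGF signalling induces, *Etv4* had 9.91 in sham with a log2 ratio of 0.28, *Etv5* had 3.02 in sham with a log2 ratio of 0.19, and *Etv1* had no peak.

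The tissue label was checked by the presence of peaks on marker genes. All 20 markers of neurons, astrocytes, oligodendrocytes, their precursors, microglia and endothelium had a peak in both lists. Of 4 genes of sensory ganglion and Schwann cells, 2 had a CCI peak and 3 a sham peak, and *Acta1* and *Ckm* of skeletal muscle had none. A peak needs both expression and m6A, so these counts do not measure the share of a cell type, and whether cell makeup differed between the groups was not tested.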

How the data were processed

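MeRIP-seq peaks of the spinal cord of CCI and sham mice were taken from 3 deposited tables, the CCI list, the sham list and the differential table, built from 4 libraries. In the deposited lists, the fold enrichment is the authors' ratio of the IP to the input library. The deposited p-value of a peak tests IP against input, and the deposited log10 false discovery rate, treated as a score, served for 1 filter. The deposited width of a peak counts its exonic bases. The methods of the paper name Cutadapt, bowtie, MACS2 and ChIPseeker, whereas the submitters' processing notes name fastp, HISAT2, HOMER, ChIPseeker and GRCm38, and the tables carry column names of exomePeak. The libraries were made with dUTP, but the sources do not say if peak calling used strand. The 3 columns of the differential table with the authors' own comparison (log2 fold change, p-value and false discovery rate of CCI against sham) were not used, and that table served for positions only.

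Peaks overlapped where their exonic blocks shared 1 bp or more, and pairs are mutual best partners by shared over united bases. Each differential row took the list peaks that overlap it best. Peak positions were set against the gene spans of RefSeq for GRCm38.p6. No sequence of the peaks beyond the RefSeq start windows was used here. Since the tables give no numbers of reads, depth is unknown and fold enrichments have no interval. Shares have 95% Wilson intervals, which cover counting error only. Samples were grouped by their titles, and with 1 library of each kind per group no test between the groups was run.

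The members, the lists of pathway genes and markers and the alternatives were chosen with earlier results of these data known. Named were all 8 members and, in each pathway list, the gene with the highest sham fold enrichment, those with the highest and lowest log2 ratio and each gene whose strongest pair was past 2-fold. *Frs2*, *Fgfr4*, *Etv1* and the genes under the name *Fgfr2* were named after their values were seen. Alternatives covered the fold enrichment (at least 2), the false discovery rate (below 0.01), merged rows, the shared bases (50% of both peaks), the fold (1.5), centring on the median of all pairs and, added after seeing the data, the restriction to peaks that overlap the RefSeq span of the named gene. Overlap and pairing were tested on simulated unspliced peaks, each with at most a single possible partner. Spliced, split and repeated peaks, as in these lists, were not covered by that test. Tables were handled with pandas 2.3.3 and numpy 2.4.6 under Python 3.11.15, intervals came from scipy 1.17.1 and plots from matplotlib 3.10.9.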

Additional observations from a re-analysis of the deposited data

How the results depend on the processing

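The alternative that changed the member counts most, chosen after seeing the data, kept only peaks that overlap the RefSeq span of the gene they are named after. It left 19 CCI peaks (from 55), 21 sham peaks (from 65), 2 differential rows (from 9) in 1 gene (from 2), and 0 pairs at least 2-fold lower (from 6) and 0 at least 2-fold higher in CCI (from 4). A fold of 1.5 in place of 2 gave 8 member pairs higher (from 4) and 9 lower in CCI (from 6) and 10 pathway genes lower in CCI (from 5). Of 42 values recomputed under an alternative, 34 stayed within the limits set (0.1 on the log2 scale for medians, 1.5 times for counts, the 95% interval for shares), the 9 lower pairs exactly at theirs, and 0 changed direction. Some alternatives could change little. The false discovery rate filter removed no member peak, with 55 left in CCI and 65 in sham, and centring shifted the log2 ratios by only 0.03. No paired analysis was possible because the IP and the input were sequenced from 1 library each in CCI and in sham. For the same reason no library could be left out. The lists were made against different inputs and peak borders, and whether input level, borders or m6A set a difference in fold enrichment was not tested.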
